A study of Rattus norvegicus with 2 samples.

Results

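Mitochondrial beta-oxidation shortens a fatty acyl-CoA by repeating a short cycle of enzyme reactions. Described here are 10 genes of that cycle and of the transfer of its electrons: Acadvl, Acadl, Acadm, Acads, Hadha, Hadhb, Hadh, Acaa2, Etfa and Etfdh. They are called the cycle genes below, though they are not the full set of its enzymes. They were chosen by name, with earlier results of these data known. The shares of all genes given beside them below are therefore description and not a test. Every probe set that the platform annotation gives to one of these symbols was taken. This made 16 probe sets among 8740 that were not controls and 10 genes among the 4736 symbols that the array names. Hearts of male Dahl salt-sensitive (DS) rats, an inbred strain whose blood pressure rises on dietary salt, were profiled at 17 weeks of age. The high-salt group was 1 array of a rat heart that the labels describe as in chronic heart failure, and the low-salt group was 1 array of the same strain, sex and age on a low-salt diet. The labels name no transgene or drug, and they do not say whether an RNA came from 1 animal or from a pool, or from which chamber of the heart. Both arrays had been scaled before deposit to a 2% trimmed mean of 100.2 arbitrary intensity units.

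The adult heart draws most of its energy from fatty acids. In each turn of the cycle an acyl-CoA dehydrogenase makes a double bond, a hydratase adds water to it, a hydroxyacyl-CoA dehydrogenase oxidises the product, and a thiolase cuts off acetyl-CoA, which enters the citrate cycle. Separate enzymes act on chains of different length, so that a long acyl-CoA passes from one set to the next as it shortens. The electrons of the acyl-CoA dehydrogenases go to the electron transfer flavoprotein and from there, through its own dehydrogenase, to ubiquinone of the respiratory chain.

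All 9 cycle genes that could be measured read lower in the high-salt heart than in the low-salt heart. The fold differences ran from 1.31-fold for Acadm to 2.13-fold for Acadvl, and the median log2 ratio, high salt divided by low salt, was -0.81, a 1.75-fold lower intensity. Over all 1211 genes measured in the same way, the median log2 ratio was -0.04 and 54.5% of the genes had a ratio below 1. The tenth gene, Hadh, was too dim on both arrays to give a ratio. With 1 array per diet there is no spread between replicates and no test, so these values compare the pair of arrays and not the diets in general.

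A value was taken as measured where it reached a noise floor of 126.4, set from the negative intensities (95th percentile of their size), which stands in for a detection call. Where a probe set reached the floor on 1 array, its ratio against the floor is a bound. A gene is called measured where its brightest probe set reached the floor on at least 1 array, so the ratio of a measured gene can be a bound. As a partial error, the log2 ratios of different probe sets of the same gene varied with a pooled SD of 0.22 over 231 genes, or 0.24 over 115 genes when probe sets made from the same cDNA were averaged first. This error holds no variation between animals. Of the 16 cycle probe sets, 13 were measured on both arrays, 1 gave a bound and 2 were under the floor on both, and all 14 with a ratio or bound were lower in the high-salt heart.

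**Figure D1:**
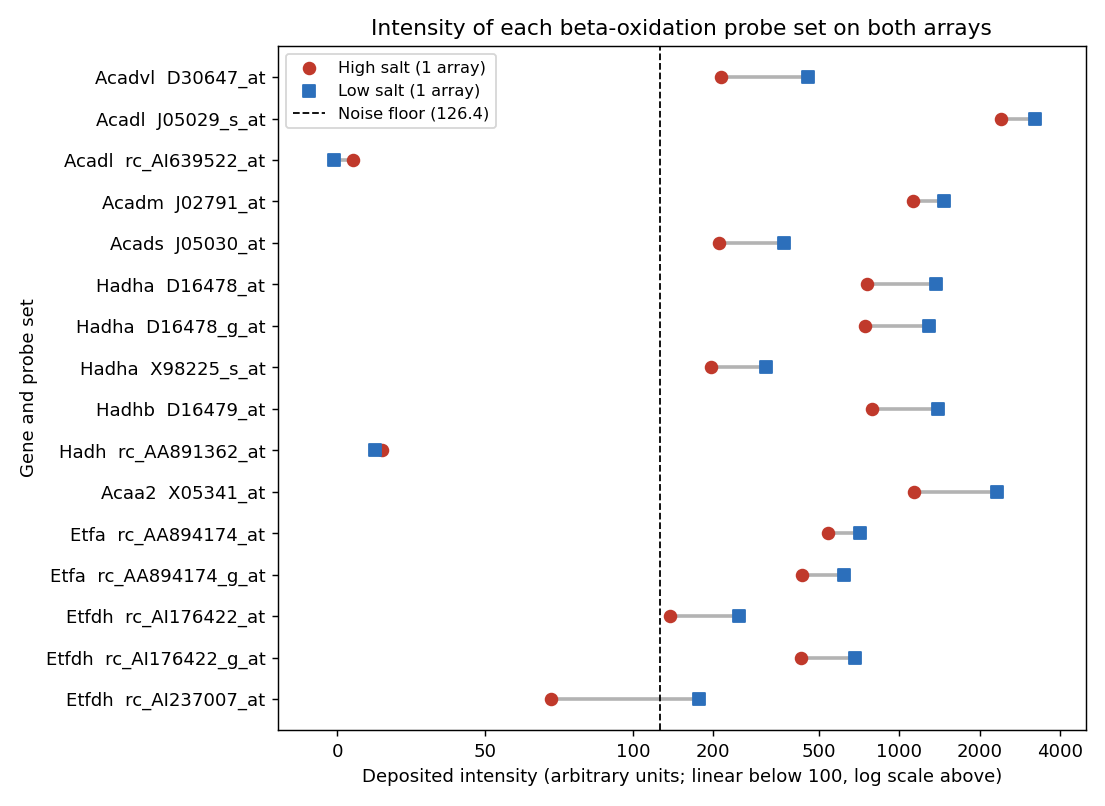
Deposited intensity of each of the 16 probe sets of the 10 cycle genes on the high-salt array (red circles) and the low-salt array (blue squares), on an axis that is linear below 100 and logarithmic above, with the noise floor of 126.4 as a dashed line. All 14 probe sets that reach the floor on an array lie further left on the high-salt array, and the Hadh probe set and the second Acadl probe set lie close to 0 on both.

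The acyl-CoA dehydrogenases open the cycle, and the array holds 4 of them, which differ in the chain length they prefer. Acadvl encodes the very-long-chain enzyme, which sits on the inner mitochondrial membrane. Its probe set D30647_at read 214.2 on high salt and 455.2 on low salt, a log2 ratio of -1.09 and the largest fold difference of the 9 genes. Only 12 of the 1211 genes had a lower ratio. Acadl encodes the long-chain enzyme, and its probe set J05029_s_at read 2399.3 against 3231.2, a 1.35-fold lower intensity. A second Acadl probe set, rc_AI639522_at, read 5.3 against -1.2, so it gives no direction.

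Acadm encodes the medium-chain enzyme, and J02791_at read 1120.9 on high salt and 1465.5 on low salt, 1.31-fold lower and the smallest difference among the measured cycle genes. Acads encodes the short-chain enzyme, and J05030_at read 210.5 against 369.0, 1.75-fold lower. By chain length, the log2 ratios of the dehydrogenases were -1.09 for very long, -0.43 for long, -0.39 for medium and -0.81 for short chains. The very-long-chain gene had the lowest ratio, and the short-chain gene stood between it and the long-chain and medium-chain genes. The gap between Acadvl and Acadm was 0.70 on the log2 scale, against an SD of 0.31 for the difference of 2 such ratios if each has the probe set error of 0.22. Acads differed from Acadl by 0.38 and from Acadm by 0.42, gaps that are within 2 such SD, so no order by chain length can be read from these values. Acadvl, Acadm and Acads were each read by 1 probe set, so these ratios have no second reading. The probe set error was pooled over genes of all brightness. On high salt, Acadvl at 214.2 and Acads at 210.5 lay not far above the noise floor of 126.4, so it may understate their error. With the floor raised to 271.2, the Acadvl log2 ratio was a bound of -0.75.

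The mitochondrial trifunctional protein, bound to the inner membrane, carries out the later steps on long chains. Hadha encodes its alpha subunit, which holds the enoyl-CoA hydratase and the hydroxyacyl-CoA dehydrogenase, and Hadhb encodes its beta subunit, the long-chain thiolase. Hadha had 3 probe sets: D16478_at read 756.7 on high salt and 1368.0 on low salt, D16478_g_at read 744.2 and 1294.2, and X98225_s_at read 195.8 and 316.6. Their log2 ratios lay between -0.85 and -0.69, a range of 0.16. Hadhb read 787.1 against 1397.3 in its single probe set, D16479_at. The subunits thus had nearly equal ratios, -0.85 for Hadha by its brightest probe set and -0.83 for Hadhb, or 1.81-fold and 1.78-fold lower.

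Hadha and Hadhb lie head to head, and their start sites in the RefSeq promoter table (build GRCr8) are 301 bases apart on chromosome 6. Their windows, each from 250 bases before to 50 bases after the start, share 200 bases. The window of Hadha is shown because it holds this shared stretch between the genes of both trifunctional protein subunits, whose ratios differed by 0.03. A gap that small was not particular to this pair. Acads and Hadhb, and also Acadm and Etfa, differed by 0.02 and lie on different chromosomes. Any part of the shared stretch in the ratios was not tested. The window of Acadvl is shown because that gene had the largest fold difference. They are written 5′ to 3′ on the strand of the gene, Hadha from chr6:31907551-31907850 on the plus strand and Acadvl from chr10:55236656-55236955 on the minus strand. Capitals mark the letters AGGTCA, the half-site read by many nuclear receptors, GGGCGG, the core of a GC box, and CCAAT, each on either strand.
Hadha: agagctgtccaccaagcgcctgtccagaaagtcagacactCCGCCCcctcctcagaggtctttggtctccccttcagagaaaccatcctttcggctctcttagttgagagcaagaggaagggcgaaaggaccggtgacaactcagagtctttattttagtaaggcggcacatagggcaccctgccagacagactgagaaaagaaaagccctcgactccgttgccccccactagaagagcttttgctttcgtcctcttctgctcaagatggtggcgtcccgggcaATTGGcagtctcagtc
Acadvl: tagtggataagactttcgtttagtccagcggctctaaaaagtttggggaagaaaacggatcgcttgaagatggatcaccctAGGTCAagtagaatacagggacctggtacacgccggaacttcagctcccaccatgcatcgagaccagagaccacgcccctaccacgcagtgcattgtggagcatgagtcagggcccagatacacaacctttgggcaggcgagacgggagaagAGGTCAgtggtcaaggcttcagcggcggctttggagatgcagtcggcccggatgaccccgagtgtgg

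Such windows were found for 8 of the 10 genes, all except Acadl and Acaa2. AGGTCA was present in 2 of the 8, Acadvl and Hadhb, against 16.2% of all 33469 windows. Acadvl held it at positions 82 to 87 and 234 to 239 of its window, counted from its 5′ end. The direct repeat of this half-site spaced by 1 base, a letter-perfect form of the element bound by PPAR and RXR, was in none of the 8 and in 0.0538% of all windows. Forms with mismatched letters were not counted. In the Acadvl window, the AGGTCA at 234 to 239 is followed by gtggtca, which makes a repeat at this spacing with 1 mismatched letter. TCAAGGTCA, the extended half-site of oestrogen-related receptors, was also in none of the 8 and in 0.433% of all. GGGCGG was in 6 of the 8, among them the measured genes Acadm, Acads, Hadha, Hadhb and Etfdh, against 33.1% of all windows. The single GGGCGG of the Hadha window lies in the stretch shared with Hadhb and is the same site as 1 of those counted for Hadhb. The 8 windows held 54.3% to 66.0% G and C, against a median of 51.7% over all windows. CCAAT was in 3 of the 8, Acads, Hadha and Etfa, against 37.5% of all. Every AGGTCA inside a longer motif was also counted as AGGTCA. These are matches of letters in short windows and not measured binding sites.

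For shorter chains the hydroxyacyl-CoA dehydrogenase step is carried out by the product of Hadh and the thiolase step by that of Acaa2, both in the matrix. The Hadh probe set, rc_AA891362_at, read 15.3 on high salt and 12.8 on low salt, both far under the noise floor, so no ratio is given. For Acaa2, X05341_at read 1132.2 against 2322.1, a log2 ratio of -1.04 or 2.05-fold lower. Among the 1211 genes, 19 had a lower ratio than Acaa2. The thiolases for shorter and for long chains, Acaa2 and Hadhb, were thus both lower, at 2.05-fold and 1.78-fold.

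Etfa encodes the alpha subunit of the electron transfer flavoprotein, and Etfdh encodes the dehydrogenase that passes its electrons to ubiquinone. For Etfa, rc_AA894174_at read 540.2 on high salt and 714.6 on low salt, and rc_AA894174_g_at read 432.3 and 619.4. The log2 ratios were -0.40 and -0.52. For Etfdh, the brightest probe set, rc_AI176422_g_at, read 426.5 against 684.0, a 1.60-fold lower intensity, and rc_AI176422_at read 137.1 against 249.8, a 1.82-fold lower one. The third, rc_AI237007_at, read 72.3 against 176.3, at least 1.39-fold lower with the high-salt value raised to the floor. The log2 ratios of the 2 Etfdh probe sets measured on both arrays differed by 0.18. Etfb, which encodes the beta subunit of the flavoprotein, was not analysed here.

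**Figure D2:**
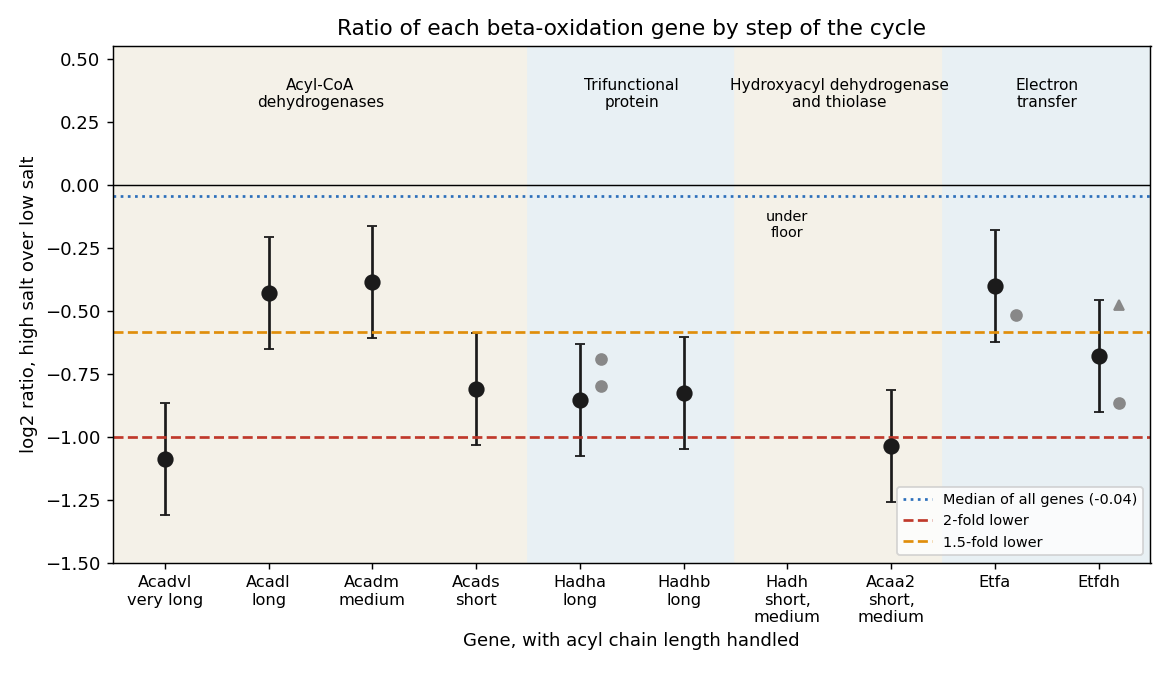
Log2 ratio (high salt over low) for each cycle gene, grouped by step, with the chain length it handles under its name. Black circles are the brightest probe set of a gene with a bar of ±1 pooled SD among probe sets of one gene (0.22), grey circles are its other probe sets, and the grey triangle is a bound; the 9 measured genes lie between -1.09 and -0.39, Acadvl and Acaa2 lie past the 2-fold line, and Hadh has no ratio.

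At 2-fold, 2 of the 9 measured genes were lower, Acadvl and Acaa2, where 1.9% of all 1211 genes were lower and 3.55% higher. At 1.5-fold, 6 of the 9 were lower, which adds Acads, Hadha, Hadhb and Etfdh, where 9.5% of all genes were lower and 9.33% higher. No cycle gene was higher at either threshold. Acadl, Acadm and Etfa were lower by less than 1.5-fold. Among the 504 genes whose mean intensity lay within the range of the 9 cycle genes, 2.38% were at least 2-fold lower and 10.1% at least 1.5-fold lower. The count at 2-fold is fragile, since Acaa2 passed that line by 0.04 on the log2 scale and fell short of it when the median ratio of all genes was set to 1, which left 1 gene.

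The 9 log2 ratios had an SD of 0.27, close to the 0.22 among probe sets of one gene. Of the 36 pairs of cycle genes, 31 differed by no more than 0.63, which is 2 SD of a difference between 2 ratios. The 5 pairs that differed by more each joined Acadvl or Acaa2 to one of the genes with the smallest differences. These were Acadvl with Acadl, Acadm and Etfa, and Acaa2 with Acadm and Etfa. The pairs with Acadvl rest on 1 probe set that read 214.2 on high salt, not far above the noise floor of 126.4. The gaps of Acadvl with Acadl (0.66) and of Acaa2 with Acadm (0.65) and Etfa (0.63) lay close to the limit. The SD of 0.24, with probe sets of the same cDNA averaged first, would widen the limit past these gaps. Acads, Hadha, Hadhb and Etfdh, with log2 ratios from -0.85 to -0.68, were not separated from either end by this measure. No test of these differences exists with 1 array per diet.

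**Figure D3:**
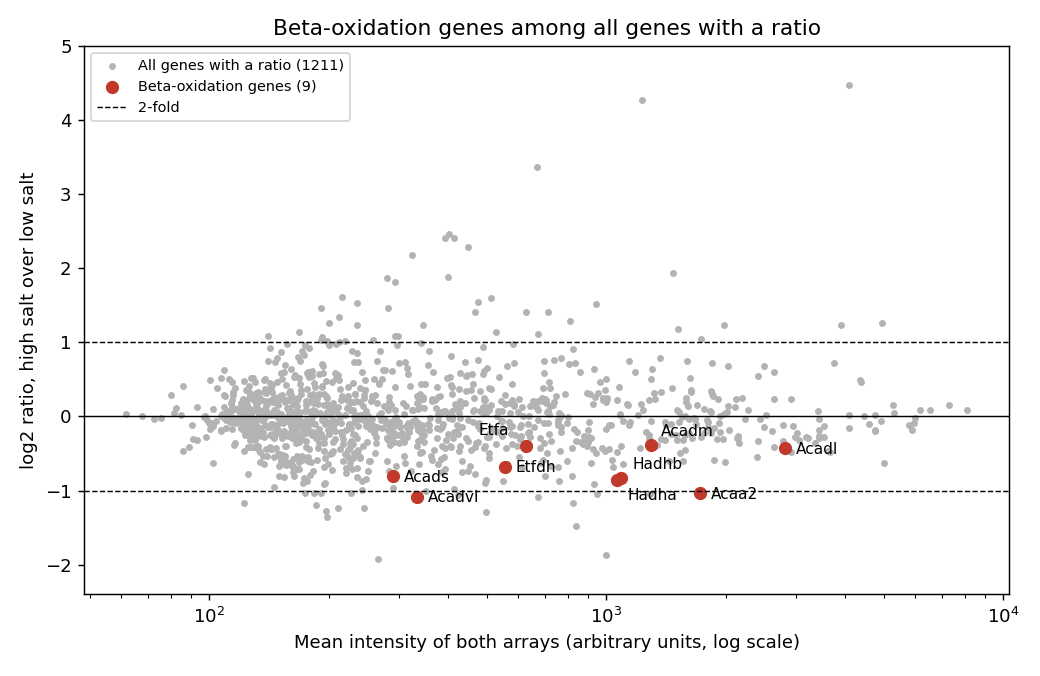
Log2 ratio (high salt over low) against the mean intensity of both arrays (log axis) for all 1211 genes with a ratio (grey) and the 9 measured cycle genes (red), with dashed lines at 2-fold. The cycle genes lie in the lower part of the cloud at every brightness, from Acads near 290 units to Acadl near 2815 units.

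Genes outside the chosen 10 that act in the cycle or beside it were read from lists of fixed membership, also chosen with earlier results known. Echs1, the short-chain enoyl-CoA hydratase, which takes the hydration step for chains that leave the trifunctional protein, read 559.0 against 891.7, 1.60-fold lower. Hsd17b10, a matrix hydroxyacyl-CoA dehydrogenase of short and branched chains, read 172.2 against 313.8, and Acot2, a thioesterase that splits acyl-CoA, 110.3 against 234.8. The Acot2 ratio is a bound, since its high-salt value lay under the noise floor. The 3 measured isomerase and reductase genes for unsaturated chains, Ech1, Eci1 and Decr1, were all at least 2-fold lower, where 1.9% of all genes were. The 3 log2 ratios ran from -1.87 to -1.06. In this list the median was -1.48, a larger difference than that of any cycle gene. Of 3 measured carnitine import genes, 2 were at least 2-fold lower, against the same 1.9% of all genes. One was Cpt2, the inner-membrane carnitine palmitoyltransferase, at 431.1 against 915.3. Another was Slc25a20, the carnitine carrier, at 122.7 against 259.0, a bound because its high-salt value lay under the noise floor. The third, Cpt1b, the muscle form of the outer-membrane palmitoyltransferase that starts import, read 1152.8 against 1410.7, 1.22-fold lower.

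Upstream of import, 2 of 4 measured genes of uptake and activation were at least 1.5-fold lower and none higher, where 9.5% of all genes were lower. These were Acsl1, a long-chain acyl-CoA synthetase, at 350.3 against 559.2, and Fabp3, a fatty acid binding protein, at 3932.1 against 6103.4. Lpl, the lipase that frees fatty acids from lipoproteins, read 2821.9 against 3098.2 in its brightest probe set. Its other probe sets went both ways, L03294_at at 2839.9 against 2692.8 and rc_AI237731_s_at at 2437.2 against 2826.1. Cd36, a fatty acid transporter, read 336.6 against 413.3. Of 4 measured peroxisomal genes, Abcd3, a peroxisomal membrane transporter, was lower at 233.8 against 468.0, while Scp2 read 467.5 against 327.4, 1.43-fold higher. The median log2 ratio of the peroxisomal list was -0.29.

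Most regulators of the cycle genes could not be read. Of 15 regulator genes with a probe set, 12 were under the floor on both arrays, among them Ppara, which encodes a fatty acid-activated nuclear receptor, at 36.5 against 41.8. Ppargc1a was not analysed here. Rxrg, which encodes a retinoid X receptor, a partner of the PPAR receptors, was 2.17-fold lower in its brightest probe set, AF016387_g_at, at 210.9 against 458.0. Its other probe sets were under the floor on both arrays, so this value has no second reading. Prkaa2, a catalytic subunit of the AMP-activated kinase, read 215.7 against 177.9.

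A list of citrate cycle, respiratory chain and mitochondrial carrier genes was lower by a smaller median amount than the cycle genes. Of its 29 measured genes, 28 read lower on high salt, where 54.5% of all genes did. The difference reached 2-fold in 2, the complex I subunit genes Ndufb10 and Ndufs7, against 1.9% of all genes. It reached 1.5-fold in 4, against 9.5% of all genes. The median log2 ratio of the 29 was -0.28, against -0.81 for the 9 cycle genes. The other lists of fuel breakdown lay on both sides of -0.81. The medians were -1.48 for unsaturated chains, -1.03 for carnitine import and -0.87 for the other cycle enzymes. They were -0.74 for branched-chain amino acid breakdown, -0.50 for ketone body use, -0.47 for uptake and activation, and -0.29 for the peroxisomal list. Cs, citrate synthase, the enzyme that takes up acetyl-CoA, read 587.8 against 827.2, a log2 ratio of -0.49. By their brightest probe sets, the log2 ratios of Acadl, Acadm and Etfa, from -0.43 to -0.39, were no lower than that of Cs. The other Etfa probe set, at -0.52, was slightly lower than Cs. The differences between the lists were not tested.

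**Figure D4:**
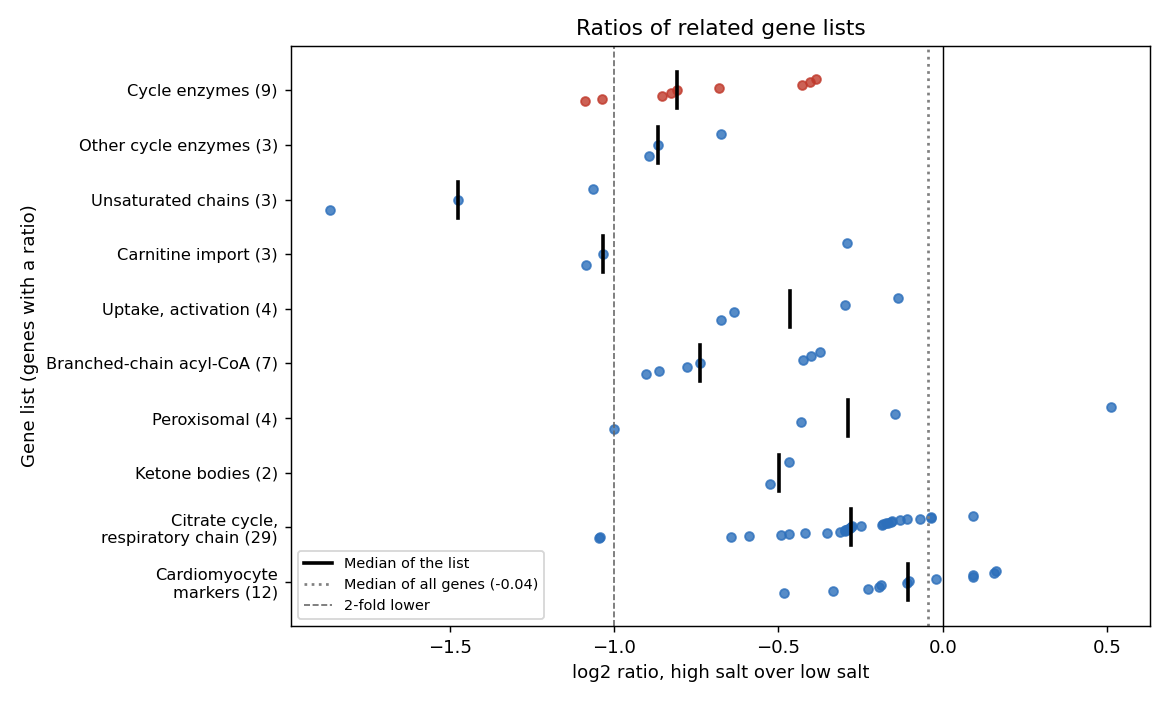
Log2 ratio (high salt over low) for each measured gene of 10 lists, with the number of genes in parentheses and the median of the list as a black bar. The medians are -0.81 for the cycle enzymes (red), -1.48 for the genes of unsaturated chains, -0.28 for the citrate cycle and respiratory chain, and -0.11 for cardiomyocyte markers, against -0.04 for all genes.

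The labelled tissue was checked by markers. Of 13 cardiomyocyte markers with a probe set, 12 were measured, and by their brightest probe sets none passed 1.5-fold. Other probe sets of the myosin heavy chain genes did: Myh7 read 4125.1 against 1988.0 in X15939_i_at, and Myh6 read 1706.2 against 3276.7 in rc_AI104924_f_at. By brightest probe sets, the summed intensity of the cardiomyocyte markers was 56187 on high salt and 58692 on low salt, and their median log2 ratio was -0.11. Some of these readings lay near the top of the scale, such as Actc1 at 8364.9 against 7848.9. The highest values on the arrays were 8962.4 on high salt and 9328.7 on low salt. Whether readings this bright follow a change in RNA in full was not tested. In bulk tissue, fewer cells of a type and less RNA per cell cannot be told apart. Markers of other cells also moved between the arrays. The red cell markers Alas2, Hbb and Slc4a1, all 3 that were measured, exceeded 2-fold in the direction of high salt by their brightest probe sets, with a summed intensity of 7945 against 3135. Of all genes, 3.55% were at least 2-fold higher. The Alas2 and Slc4a1 ratios are bounds, since their low-salt values lay under the noise floor. Another Slc4a1 probe set, J04793_at, read 168.3 against 174.8. Of 9 measured fibroblast markers, 5 had a ratio above 1 and 4 below, and 3 were at least 1.5-fold higher, where 9.33% of all genes were, with a sum of 5273 against 4087. The leukocyte markers, of which 3 of 11 were measured, summed to 1355 against 1560 but went both ways: Lyz2 read 458.6 against 130.4 and Cd74 507.3 against 1144.4. The adipocyte markers summed to 1520 against 1799. Of these, Fabp4 read 613.4 against 785.0 and Lep 531.1 against 453.6 in its brightest probe set, while Cfd and Plin1 were near 0 on both arrays. Slc2a4, which muscle also expresses, read 288.3 against 483.0 in its brightest probe set. Its other probe set, rc_AA799760_s_at, read 148.1 against 93.7, a bound in the opposite direction. The endothelial and hepatocyte markers were mostly unreadable, with 5 of 6 and 5 of 7 under the noise floor on both arrays. Their summed intensities were 439 against 397 and 603 against 456. The part of these shifts in the lower cycle enzyme readings was not tested.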

How the data were processed

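Per the labels' protocols, heart RNA was transcribed in vitro into biotin-labelled cRNA. The arrays have 1 colour and probe set names of Affymetrix type. The authors deposited 1 linear intensity per probe set and array. The software behind it is not given in the sources used here. Intensities below 0 occur, and the 2% trimmed means agreed to within 0.0030%, so the values were used as deposited. The precision is limited by the number of arrays, 1 per diet, and no test or p-value was computed.

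Gene names came from a 2016 platform annotation. Of 8740, 7006 had 1 symbol, 308 several and 1426 none, and those with 1 symbol were used. The RefSeq gene table (GRCr8) updated older symbols in the lists. Both values were raised to the noise floor before the log2 ratio was taken, and genes under it on both arrays were left out. A gene is represented by its probe set with the highest mean intensity. Named genes were all 10 cycle genes, up to 4 genes past 1.5-fold of each related list, and Etfb, Echs1, Cpt1b, Ppara and Ppargc1a. Cs, Lpl, Cd36, Scp2, Prkaa2, Ivd, Hibadh, Pcca, Acat1 and Bdh1 were named after their values were seen. The cycle genes and lists were chosen with earlier results of these data known. No genes were named by likeness of pattern, since a pair of arrays gives 1 ratio. Ratio steps were tested on simulated arrays. Alternatives were other floors, scalings, choices of probe set and probe set types. Tools were pandas 2.3.3 and numpy 2.4.6 under Python 3.11.15, statsmodels 0.14.6 for loess, scipy 1.17.1 for trimmed means and matplotlib 3.10.9 for figures.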

Additional observations from a re-analysis of the deposited data

How the results depend on the processing

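All 9 measured cycle genes had a ratio below 1 under each of the 10 alternatives that gave them a value, and without probe sets that can share sequence Acadl had none, which left 8. Of their 89 values under the alternatives, 87 moved by less than the probe set SD of 0.22. The 2 that moved further were the log2 ratios of Acadvl (-0.75) and Acads (-0.44) when the floor was raised to 271.2, where both are bounds. Hadh had a ratio with the floor lowered to 10.9 or replaced by log2(value + 16), and its log2 ratios of 0.26 and 0.12 come from intensities within the noise. The median log2 ratio of the cycle genes ran from -0.84 to -0.68, and the number at least 1.5-fold lower from 5 to 6. The number at least 2-fold lower was 1 in place of 2 with the floor at 271.2, with the median ratio set to 1 and with loess scaling (span 0.4). Lowering the floor to 10.9 raised the share of all genes at least 2-fold lower to 7.23%. The median log2 ratio of all probe sets measured on both arrays, which the scaling to a median ratio of 1 sets to 0, was -0.05. No paired analysis was possible because each diet has 1 array.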

Other observations

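Enzymes that break down branched-chain amino acids also feed acyl-CoA into mitochondria, and some of their dehydrogenases pass electrons to the same flavoprotein as the fatty acyl-CoA dehydrogenases. All 7 measured genes of this list had a ratio below 1 in the high-salt heart, where 54.5% of all genes did. Their median log2 ratio was -0.74, and 4 of them were at least 1.5-fold lower, against 9.5% of all genes. Bckdhb and Bckdha, which encode the beta and alpha subunits of the first component of the branched-chain keto acid dehydrogenase, read 344.8 against 644.5 and 188.5 against 314.6. Auh, a hydratase of leucine breakdown, read 353.7 against 643.0, and Aldh6a1, a semialdehyde dehydrogenase of valine breakdown, 343.2 against 589.2. Ivd, the isovaleryl-CoA dehydrogenase and a relative of the acyl-CoA dehydrogenases, read 579.9 against 779.5 in its brightest probe set. That log2 ratio, -0.43, lay beside those of Acadl and Acadm, but its other probe sets gave -0.25 and -0.62. Hibadh and Pcca had log2 ratios of -0.37 and -0.40.

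Both measured genes of ketone body use read lower on high salt. Acat1, the acetoacetyl-CoA thiolase, had a log2 ratio of -0.47 by its brightest probe set (640.2 against 886.2) and of -0.65 by the other one measured on both arrays (466.7 against 734.3). Bdh1, a hydroxybutyrate dehydrogenase, read 115.8 against 181.9, at least 1.44-fold lower, since the high-salt value lay under the noise floor. These lists, like the cycle genes, were read on 1 array per diet and have no test.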
